A study of Mus musculus with 2 samples.

Results

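The C1q-positive macrophages were the cells chosen by their UMI counts (molecules counted by unique molecular identifiers) of C1qa, C1qb and C1qc, in single-cell RNA sequencing of the proximal small intestine of 2 mice. A kept barcode entered the class with at least 3 UMIs summed over these 3 genes, no UMI of Cd3d, Cd3e or Cd3g, and fewer than 10 UMIs of Mzb1, Derl3 and Xbp1 together, which exclude T cells and plasma cells. They were 629 of the 14898 barcodes kept, of 18445 deposited. Both mice belonged to 1 group, VilCreER Apc fl/fl, in which tamoxifen, given as 2 intraperitoneal injections of 2 mg with 24 h between them, activates a Cre recombinase that deletes both copies of Apc. Tissue was taken on day 4. The Villin promoter drives this Cre in intestinal epithelium, so the macrophages described here were not the cells meant to be recombined. There was no library without Apc deletion, the ages of the mice were not given, and no effect of Apc loss can be read from these data.

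C1q is the recognition molecule of the classical complement pathway, assembled from A, B and C chains, and in most tissues macrophages are its main source. Macrophages of the gut wall take up dying cells and microbes, present antigen on MHC class II, and depend on the growth factor receptor Csf1r. Many of them are replaced from blood monocytes, which enter with Ccr2 and Ly6c2, lose these as they mature, and gain C1q, MHC class II and Cx3cr1. A smaller group that carries Timd4 and Cd4 is known to be maintained locally.

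The 3 genes that define the class lie side by side on the minus strand of chromosome 4 (GRCm38, the same build as mm10, with gene models of GENCODE M21). C1qb spans chr4:136880129-136886187, C1qc chr4:136889804-136893065 and C1qa chr4:136895917-136898803. The bases just upstream of the genes are shown for C1qb (chr4:136886201-136886450) and C1qc (chr4:136893066-136893164), 5′ to 3′ on the minus strand, from RefSeq (GRCm38.p6). Capitals mark every match to GAGGAA, a core bound by the myeloid factor PU.1, or to TGCTGA, a half-site of MAF factors, searched on both strands.
C1qb: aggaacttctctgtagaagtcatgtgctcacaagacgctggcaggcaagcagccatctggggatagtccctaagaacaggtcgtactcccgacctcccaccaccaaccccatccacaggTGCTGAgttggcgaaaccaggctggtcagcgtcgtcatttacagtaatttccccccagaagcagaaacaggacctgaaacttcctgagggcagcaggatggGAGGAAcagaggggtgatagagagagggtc
C1qc: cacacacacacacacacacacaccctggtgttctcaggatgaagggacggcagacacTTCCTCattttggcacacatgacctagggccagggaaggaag
The C1qb stretch held 1 match of each motif, with GAGGAA from base -30 to -25 before the RefSeq start, and the C1qc stretch held 1 match to GAGGAA on the opposite strand. Of 32851 RefSeq windows of 250 bases upstream of a start, 23.3% held GAGGAA and 16.1% held TGCTGA on either strand, so single matches were common.

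Mouse 1 gave 410 members of 7941 kept barcodes, or 5.16% (95% exact Clopper-Pearson interval 4.69 to 5.67), and mouse 2 gave 219 of 6957, or 3.15% (2.75 to 3.59). These intervals, and all others given, cover counting error only. Members had medians of 2505 and 3084 UMIs per cell and summed to 2000692 and 1277513 UMIs. No member barcode was shared between the libraries, although 16 kept barcodes were. The comparison classes were monocyte-like cells (at least 3 UMIs of Chil3, Fn1 and Ccr2 together, at least 3 of Lyz2, fewer than 3 of C1q), with 57 and 98 cells, and dendritic-like cells (at least 3 UMIs of Flt3, Zbtb46, Xcr1, Clec9a and Cd209a together, fewer than 3 of C1q), with 78 and 50 cells. Both classes were deeper than the members, with medians of 8735 and 6704.5 UMIs for the monocyte-like cells and 12389 and 7157 for the dendritic-like cells. The dendritic-like cells also held genes of plasmacytoid dendritic cells, such as Siglech at 355 and 1273 CPM (UMIs of a gene per 1000000 UMIs of the class), so that class was a mixture. The members of mouse 1 carried more RNA of plasma cells and pancreas: 12 plasma cell genes summed to 18950 CPM against 2772 CPM in mouse 2, and 11 acinar enzyme genes to 1895 against 31.3 CPM. In all other kept barcodes of mouse 1 the same sums were 429607 and 11115 CPM.

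The values that chose the members are given as a description. The C1q sum had a median of 27 UMIs per member in mouse 1 (range 3 to 390) and of 17 in mouse 2 (range 3 to 321). All 3 genes were seen in 376 members (91.7%) of mouse 1 and 177 (80.8%) of mouse 2. At the threshold, 6 and 9 members had exactly 3 UMIs, and 11 barcodes in each mouse had exactly 2 and were left out. At least 10 UMIs were held by 356 of 410 members in mouse 1 and 156 of 219 in mouse 2. Apoe, a lipid carrier of macrophages, stood at 1180 CPM in the members with 3 UMIs and at 832 CPM in the barcodes with 2 in mouse 1, and at 3879 and 3420 CPM in mouse 2. In the members with 3 UMIs, Pf4 was at 0 CPM in mouse 1 and 45.9 CPM in mouse 2. It was at 389 and 809 CPM in those with at least 10. The 6 cells of mouse 1 had a median of 913 UMIs in all. The members held 75.1% of the C1q UMIs of all kept barcodes in mouse 1 and 70.6% in mouse 2. Among Cd3-gated cells (medians of 3415 and 2608 UMIs), 8.28% and 2.26% held any C1q UMI. Across members with at least 1000 UMIs (366 and 176 cells), the Spearman correlation of C1qa with C1qb per cell was 0.74 in mouse 1 and 0.75 in mouse 2, a description over cells of 1 library each. With Apoe, a gene on chromosome 7, the correlation of C1qa was 0.69 and 0.64.

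The other markers of the class were present in both mice. Pf4 (platelet factor 4, a chemokine) stood at 365 and 735 CPM in the members of mouse 1 and mouse 2, against 2.83 and 7.11 CPM in all other kept barcodes. Ms4a7, a membrane protein of mature macrophages, stood at 398 and 198 CPM, and Adamdec1, a metalloprotease-like protein of gut macrophages, at 624 and 258 CPM. In the other barcodes each of the latter genes was below 7 CPM. With each cell thinned to 1000 UMIs, which left out 44 and 43 shallower members, Pf4 was seen in 38.8% and 40.0% of members, Ms4a7 in 39.7% and 19.9%, and Adamdec1 in 46.4% and 20.8%. In thinned Cd3-gated cells, which should lack these genes, each was seen in under 1% (unthinned shares in members were 56.3% and 50.7%, 58.8% and 33.8%, and 60.2% and 35.2%). With 1 library per mouse no test between the mice was possible, and the values lay with Pf4 higher in mouse 2 and Ms4a7 and Adamdec1 higher in mouse 1. Csf1r, at 733 and 643 CPM, was seen in 50.7% and 45.2% of thinned members, and Apoe in 94.9% and 87.7%.

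**Figure D1:**
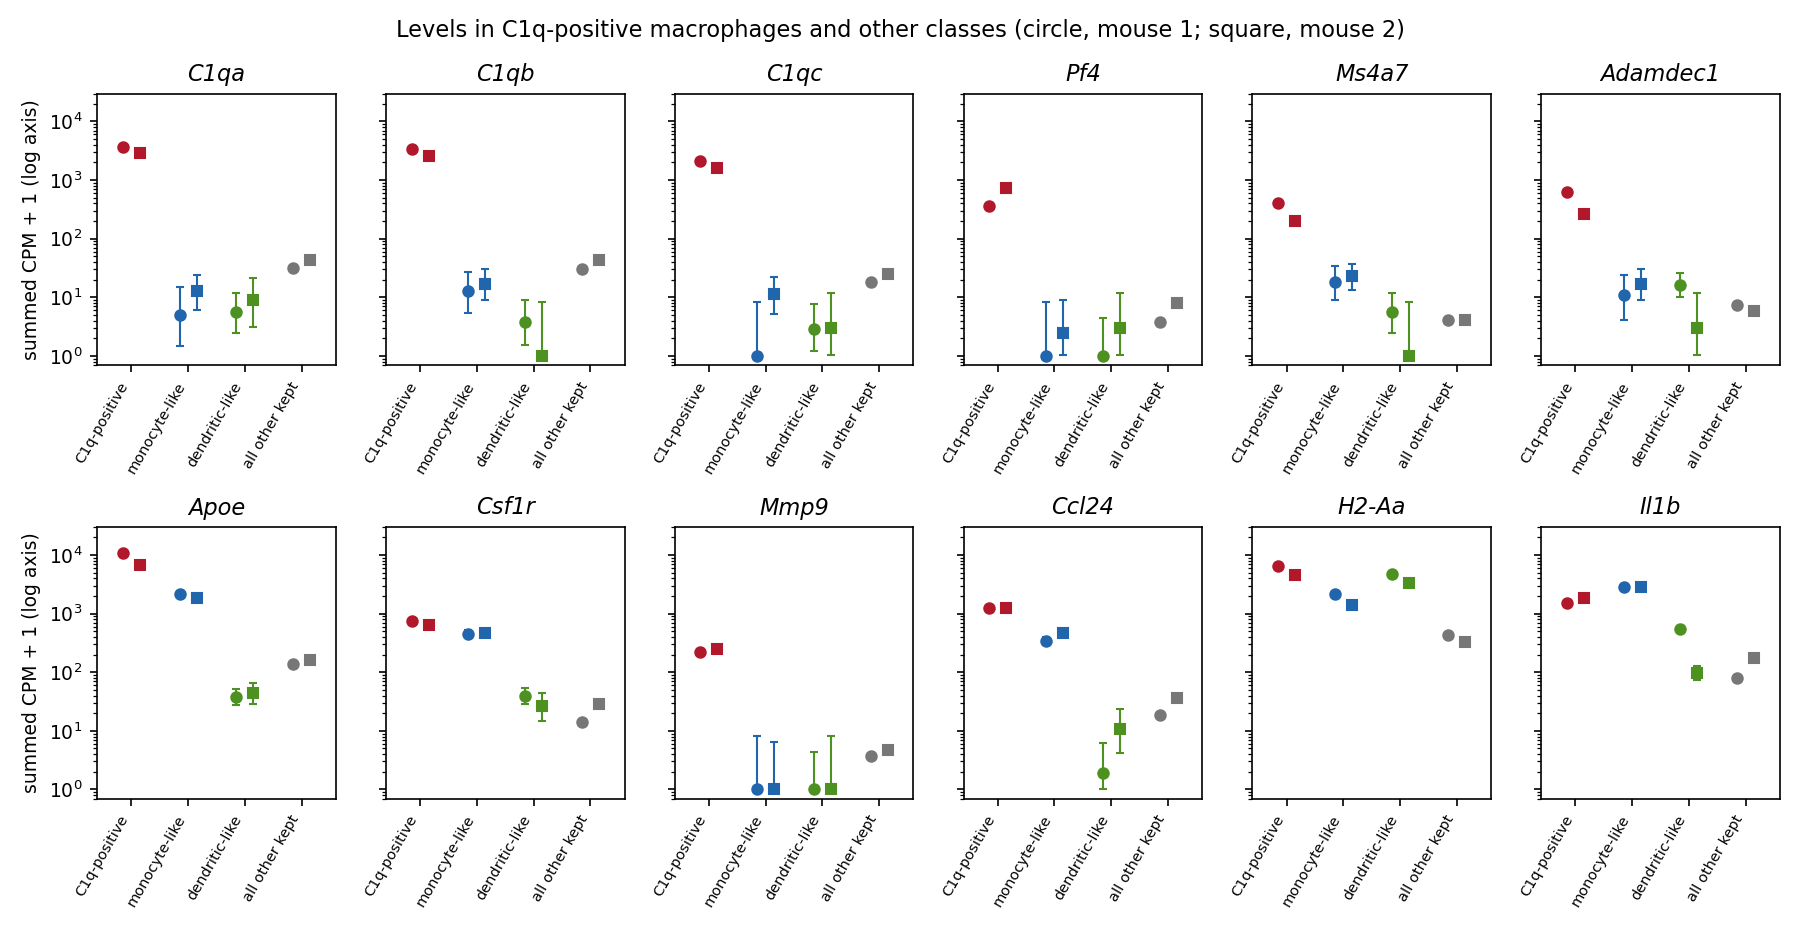
Summed CPM plus 1 (log axis) in C1q-positive, monocyte-like, dendritic-like and all other kept barcodes for 12 genes, with circles for mouse 1, squares for mouse 2 and bars for exact 95% Poisson intervals. Mmp9 had no UMI in either comparison class, while H2-Aa and Il1b were high in more than 1 class.

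To ask how the members differed from the cells they are thought to arise from, the UMIs of each class were added up within each mouse, and the C1q-positive sums were compared with the monocyte-like sums by edgeR, with the genes of every gate left out of the test. Called higher in the macrophages were 5 of 13 genes of uptake and scavenging, 4 of 13 MHC class II genes, 5 of 18 chemokine genes and 8 of 15 genes of cell division, against 2.34% of all genes. The chemokine count includes Pf4, a marker by which the class was named. Called lower were 8 of 9 monocyte marker genes, against 2.18% of all genes. That count is no independent support, because other genes of the same list chose the monocyte-like cells. In such sums, fewer cells with a gene and less RNA of it per cell cannot be told apart, so shares of cells are given where they bear on a result. Of 7903 genes tested, 185 (2.34%) were called higher and 172 (2.18%) lower at an adjusted p under 0.05, and a replicate block for the mouse gave 299 and 312. All 357 calls had the same sign in each mouse, which adds no separate support, because the same sums made the calls. They leaned on both monocyte-like sums: 19 of them kept their call without the monocyte-like sum of mouse 1 and 23 without that of mouse 2, while 94 and 206 kept it without the C1q-positive sum of mouse 1 or mouse 2.

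Among the class markers that no gate used, all 3 were called higher than in monocyte-like cells, which is no independent support because the cells were named by them. Ms4a7 was at 17.6 and 22.0 CPM in the monocyte-like cells (log2 fold change 3.91 ± 0.50, SE, adjusted p = 0.00723). Adamdec1 was at 9.78 and 16.1 CPM there (5.07 ± 0.65, adjusted p = 0.00723). Pf4 had 1 UMI in all monocyte-like cells against 1670 in the members, a ratio of 608 whose 95% counting interval began at 109 (adjusted p = 0.00104). Of 11 genes shared by most macrophages and monocytes, 1 was higher (Aif1), 1 lower (Cd14) and 9 not called (3 higher and 1 lower under the replicate block, with Cx3cr1 and Mertk added). Csf1r, at 456 and 465 CPM in the monocyte-like cells, differed by 0.59 ± 0.21 (adjusted p = 0.189). Aif1, an actin-binding protein, was at 1321 and 1022 CPM in the members and 477 and 433 CPM in the monocyte-like cells. The lipopolysaccharide co-receptor gene Cd14 was at 249 and 290 CPM against 1201 and 795 CPM, and its log2 fold change was -1.88 ± 0.25 (adjusted p = 0.00802). Of its UMIs in the members, 407 of 499 and 317 of 371 lay in members that also met the monocyte gate, and without the members holding UMIs of other classes the log2 fold change was -3.29 ± 0.29 (adjusted p = 0.00028).

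Genes of uptake of dying cells and of scavenging had a median log2 fold change of 1.12 over the 13 tested, against 0.02 for all genes, and 5 were called higher and none lower. Under the replicate block, 6 were higher and 1 (Lrp1) lower. Stab1 (stabilin-1, a scavenger receptor) was at 128 and 186 CPM in the members and at 25.4 and 27.9 CPM in monocyte-like cells (2.54 ± 0.27, adjusted p = 0.0036). Mrc1, the mannose receptor, was at 186 and 315 CPM against 64.5 and 26.4 CPM (2.49 ± 0.45, adjusted p = 0.023). Axl, a receptor for dying cells, was at 260 and 289 CPM against 133 and 120 CPM (1.12 ± 0.22, adjusted p = 0.0282). Its ligand Gas6 was at 31.5 and 61.1 CPM and had no UMI in monocyte-like cells, at least 17.1-fold higher when 3 UMIs over the class are taken as the floor (adjusted p = 0.0109). Mertk, the sister receptor of Axl, was at 78.0 and 65.0 CPM against 33.2 and 32.3 CPM and was not called (adjusted p = 0.0765), but was under the replicate block (adjusted p = 0.0386). It was also called without the members holding UMIs of other classes (1.52 ± 0.30, adjusted p = 0.0138).

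The MHC class II genes of the surface complex were higher, with both member values above both monocyte-like values. H2-Aa (alpha chain of I-A) was at 6606 and 4575 CPM in the members and at 2136 and 1421 CPM in the monocyte-like cells (1.67 ± 0.29, adjusted p = 0.0209). H2-Ab1, H2-Eb1 and the invariant chain Cd74 were called likewise, with log2 fold changes of 1.66 ± 0.27, 1.87 ± 0.42 and 1.58 ± 0.30. These were 4 of the 13 genes of the list, with 6 called under the replicate block and none lower in either fit. In thinned cells H2-Aa was seen in 97.0% and 85.2% of members and in 38.9% and 28.3% of monocyte-like cells.

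Of 24 lysosomal genes, 3 were called higher and none lower, and 5 were higher under the replicate block. The background for this list and the 2 that follow was 2.34% of all genes called higher and 2.18% lower. Lgmn, the lysosomal protease legumain, was at 927 and 1044 CPM against 164 and 242 CPM (2.28 ± 0.29, adjusted p = 0.00723). The tetraspanin gene Cd63, which differed between the mice, was at 351 and 127 CPM against 3.91 and 38.1 CPM (3.43 ± 0.73, adjusted p = 0.0373). Among 17 genes of lipid handling, Apoe and the phospholipid carrier Pltp were higher and the fatty acid-binding Fabp5 was lower (5 higher and 2 lower under the replicate block). Apoe was at 10664 and 6672 CPM against 2163 and 1811 CPM (2.14 ± 0.25, adjusted p = 0.00572). Among 11 genes of iron and haem, the iron exporter Slc40a1, the ferroxidase Cp and the biliverdin reductase Blvrb were higher. Blvrb was at 234 and 107 CPM against 52.8 and 48.4 CPM (1.78 ± 0.39, adjusted p = 0.0407).

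Chemokine genes moved in both directions, with 5 of 18 called higher (the class marker Pf4 among them), 1 (Ccl6) lower (2 under the replicate block), and a median log2 fold change of -0.25. Ccl8, which attracts monocytes and other leukocytes, was at 79.0 and 79.8 CPM in the members and had no UMI in monocyte-like cells, at least 31.5-fold higher over the floor (adjusted p = 0.00392). Ccl24, an eosinophil attractant, was at 1229 and 1252 CPM against 340 and 459 CPM (1.64 ± 0.34, adjusted p = 0.0359). Ccl12, a monocyte attractant, was at 91.0 and 216 CPM against 27.4 and 5.87 CPM (3.28 ± 0.63, adjusted p = 0.0274). Of 17 genes of cytokines and growth factors, Igf1, Il18bp and Tnfsf13b were higher and Hbegf lower, against 2.34% and 2.18% of all genes. The replicate block gave 4 in each direction. Igf1, a growth factor, was at 39.5 and 23.5 CPM with no UMI in the monocyte-like cells, at least 13.2-fold higher (adjusted p = 0.0222). Hbegf, a ligand of the epidermal growth factor receptor, was at 15.0 and 14.9 CPM against 115 and 85.1 CPM (-2.72 ± 0.28, adjusted p = 0.0036). Il10, a cytokine linked to gut macrophages, had 4 and 1 UMIs in all members, too few to compare.

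In the complement list beyond C1q, the receptor gene C3ar1 was higher (1.41 ± 0.27, adjusted p = 0.0282) and C3, the central component, was lower, at 15.5 and 20.4 CPM against 176 and 126 CPM (-3.07 ± 0.29, adjusted p = 0.0036). All 31 and 26 C3 UMIs of the members lay in members that also met the monocyte gate. Of 21 receptor genes, the Fc receptor Fcgr4 was higher, and the interferon-gamma receptor Ifngr1 and the Toll-like receptor Tlr2 were lower (2 higher and 3 lower under the replicate block). Of 26 transcription factor genes, 1 was higher and none lower, and the replicate block gave 2 and 3. Over all genes tested 2.34% were called higher and 2.18% lower, so a single call says little about any list in this paragraph. Maf was at 150 and 186 CPM against 62.6 and 58.6 CPM (1.47 ± 0.34, adjusted p = 0.0474). Interferon response genes gave 1 call of 18 (Ifitm3, lower) and stress genes induced by tissue digestion 1 of 16 (Ier3, lower), and each list gave 3 lower under the replicate block.

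Outside the lists of functions above, the genes with the largest rise included several with no UMI in any monocyte-like cell. Mmp9, a matrix-degrading gelatinase taken from the list of neutrophil marker genes, was at 222 and 245 CPM and at least 91.9-fold higher (adjusted p = 0.00104). It was seen in 19.1% and 17.8% of thinned members. Of the 10 genes of that neutrophil list, 3 were tested, with Mmp9 called higher than in monocyte-like cells and none lower. Against dendritic-like cells, Csf3r and Mmp9 were called higher and none lower. The list, with Mmp9 included, summed to 350 and 375 CPM in the members and to 151 and 117 CPM in monocyte-like cells. The neutrophil genes S100a9 and S100a8 had 0 and 5 UMIs in all members, and 2 members of mouse 1 and none of mouse 2 held 3 or more UMIs of S100a8, S100a9 and Csf3r. Dnase1l3, a secreted DNase, was at 279 and 149 CPM (at least 90.8-fold higher), and Gbp2b, an interferon-induced GTPase, at 255 and 92.4 CPM (at least 76.2-fold). C6, a terminal complement component, had 184 and 60 UMIs in the members and none in either comparison class (at least 29.6-fold higher than in monocyte-like and 39.7-fold higher than in dendritic-like cells). Among the genes that fell were the clotting factor gene F13a1, at 2.50 and 38.4 CPM against 344 and 274 CPM, and Ahnak, a large scaffold protein, at 21.5 and 89.2 CPM against 737 and 584 CPM. Of 9 monocyte marker genes tested that no gate used, 8 were lower, among them Plac8, Ly6c2 and Vcan. Their fall adds no independent support, because Chil3, Fn1 and Ccr2 of the same list chose the comparison cells.

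**Figure D2:**
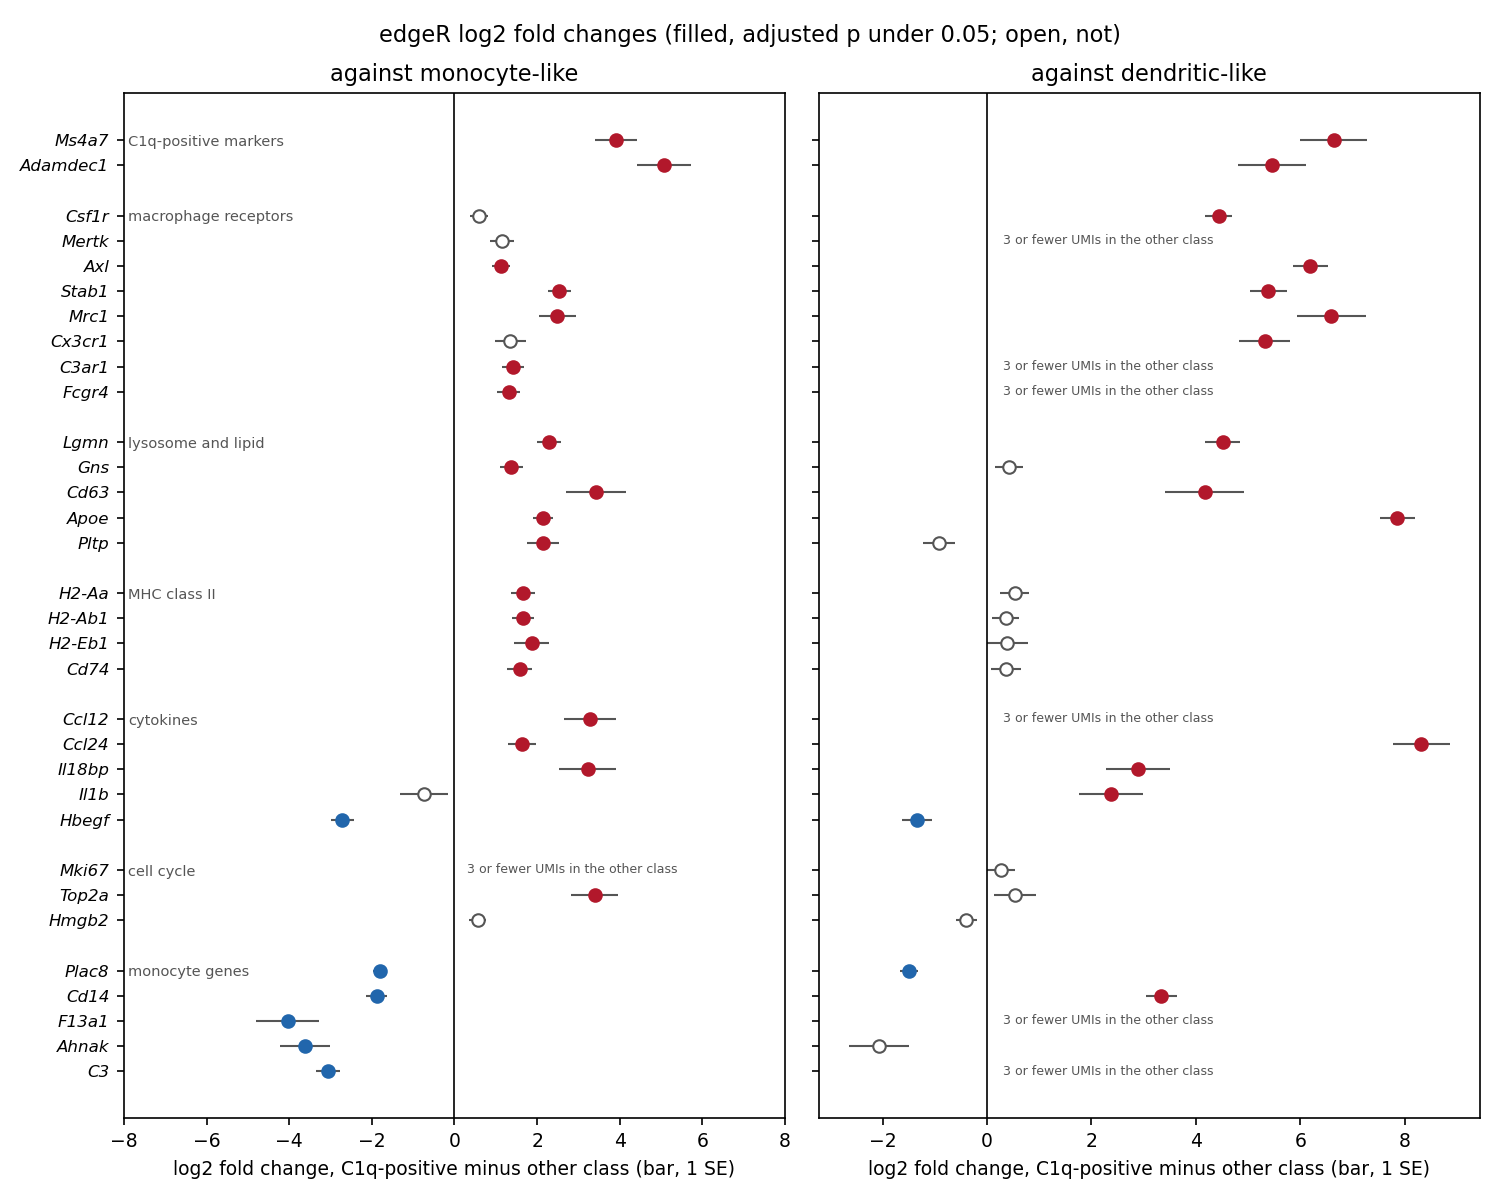
Log2 fold changes of genes by role in C1q-positive macrophages against monocyte-like cells (left) and dendritic-like cells (right), with bars of 1 SE, filled points for an adjusted p under 0.05 and text in place of a point where the other class held 3 or fewer UMIs. The MHC class II genes were higher than in monocyte-like cells by 1.58 to 1.87 and were not called against dendritic-like cells.

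Against dendritic-like cells, which also present antigen, 569 genes (7.20%) were called higher in the members and 429 (5.43%) lower, and 782 and 579 under the replicate block. Of the 13 MHC class II genes, none was called higher and 3 were called lower. Log2 fold changes were 0.53 ± 0.28 for H2-Aa (adjusted p = 0.302) and 0.37 ± 0.29 for Cd74 (adjusted p = 0.497), although the replicate block called 2 genes higher, H2-Aa and H2-DMb1. Of the genes called lower, H2-Oa was at 10.5 and 6.26 CPM in the members against 162 and 103 CPM (-3.86 ± 0.41, adjusted p = 0.00074), and H2-DMb2 and H2-Ob fell by 1.65 and 3.13 on the log2 scale.

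Of the 11 genes shared by macrophages and monocytes, 9 were higher than in dendritic-like cells and none lower, where 7.20% of all genes tested were called higher. Csf1r was at 38.4 and 25.7 CPM in dendritic-like cells (4.44 ± 0.26, adjusted p = 9.33e-05). Apoe was at 36.5 and 43.4 CPM there (7.86 ± 0.34, adjusted p = 3.91e-05). Msr1, a scavenger receptor, had no UMI in dendritic-like cells and was at 308 and 380 CPM in the members, at least 179-fold higher (adjusted p = 5.51e-05).

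Against the same background of 7.20% called higher, 9 of 13 genes of uptake and scavenging were higher, 12 of 24 lysosomal genes, 12 of 18 chemokine genes and 12 of 17 cytokine genes, with 1 of all these lower (Hbegf, and Ccl17 added under the replicate block). The chemokine count again includes the class marker Pf4. Lgmn stood at 32.0 and 63.2 CPM in dendritic-like cells (4.51 ± 0.33, adjusted p = 0.000137). Of the transcription factors, 10 were higher, Maf and Cebpb among them, and 5 lower: Id2, Irf4, Irf8, Nfkb1 and Tcf4, several of which are known from dendritic cells. The interleukin gene Il1b was at 554 and 96.7 CPM in dendritic-like cells (2.38 ± 0.61, adjusted p = 0.036), a call that was lost without the members that held genes of other classes, as given below. Vegfa, also among the 12 cytokine genes, lost its call likewise, while Il1rn, Igf1, Il18bp, Tnfsf13b and Wnt4 kept theirs.

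The members were not uniform. In mouse 1, 83 members (20.2%) and in mouse 2, 75 members (34.2%) also met the monocyte gate of Chil3, Fn1, Ccr2 and Lyz2, so the class also held cells with monocyte genes and is called C1q-positive, not resident, here. These cells had medians of 10429 and 10070 UMIs, against 2037 and 1439 in the other members, and carried 46.0% and 64.0% of all UMIs of the class. A gate set in UMIs finds deep cells more easily, and the part of depth and of doublets in this split was not tested. The values below are a description with no test. For this split the share over all genes was not computed, so the list counts below stand without a background.

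Inside the monocyte gate, the markers of the class were lower in both mice. Of 20 chemokine genes 6 were higher inside in both mice and 11 lower, and of 24 cytokine and growth factor genes 8 were higher and 8 lower. Pf4 was at 32.6 CPM inside and 648 CPM outside the gate in mouse 1, and at 270 and 1563 CPM in mouse 2. Ms4a7 was at 64.2 and 683 CPM in mouse 1, and at 58.7 and 446 CPM in mouse 2. Mmp9 was at 2.18 and 409 CPM in mouse 1 and at 45.2 and 601 CPM in mouse 2. The class markers that no gate used (Pf4, Ms4a7 and Adamdec1), and 22 of 24 lysosomal genes, were lower inside than outside in both mice. C1qa, C1qb and C1qc were lower too, but this is no support because they chose the members. A cut set in UMIs admits deep cells at a lower CPM.

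Il1b, which encodes interleukin-1 beta, was at 2731 CPM inside and 459 CPM outside in mouse 1, and at 2707 and 298 CPM in mouse 2. Cxcl2, a neutrophil attractant, was at 1582 and 205 CPM in mouse 1 and at 1043 and 93.6 CPM in mouse 2. The monocyte attractant Ccl12 lay the other way, at 19.6 and 152 CPM in mouse 1 and at 57.4 and 498 CPM in mouse 2, as did Ccl8 and Cxcl9. The early-response gene Fos was at 2613 and 642 CPM in mouse 1 and at 1549 and 165 CPM in mouse 2. Of 16 genes of the digestion stress list, 15 were higher inside the gate in both mice and 1 was lower, and the list summed to 14137 and 11761 CPM inside, near the 14736 and 12873 CPM of monocyte-like cells, against 4359 and 2410 CPM outside. Of 13 MHC class II genes, 10 were higher inside the gate in both mice and 2 lower. That list summed to 38721 CPM inside and 37543 CPM outside in mouse 1, and to 24602 and 27000 CPM in mouse 2. H2-Aa differed little, at 7200 CPM inside and 6100 CPM outside in mouse 1 and at 4608 and 4517 CPM in mouse 2. Ly6c2 was low on both sides in mouse 1 (18.5 and 19.4 CPM), and in mouse 2 was at 112 CPM inside and 10.9 CPM outside. C1qa, a gene that chose the members, was at 2127 and 4930 CPM in mouse 1 and at 1671 and 5102 CPM in mouse 2. Per cell, over members with at least 1000 UMIs, the Spearman correlation of Ccr2 with C1qa was -0.53 in mouse 1 (366 cells) and -0.62 in mouse 2 (176 cells), and that of Ccr2 with Il1b was 0.66 and 0.75. Ccr2 was part of the monocyte gate, C1qa helped choose the members, and the points share a library. These values therefore describe the split and do not add to it.

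**Figure D3:**
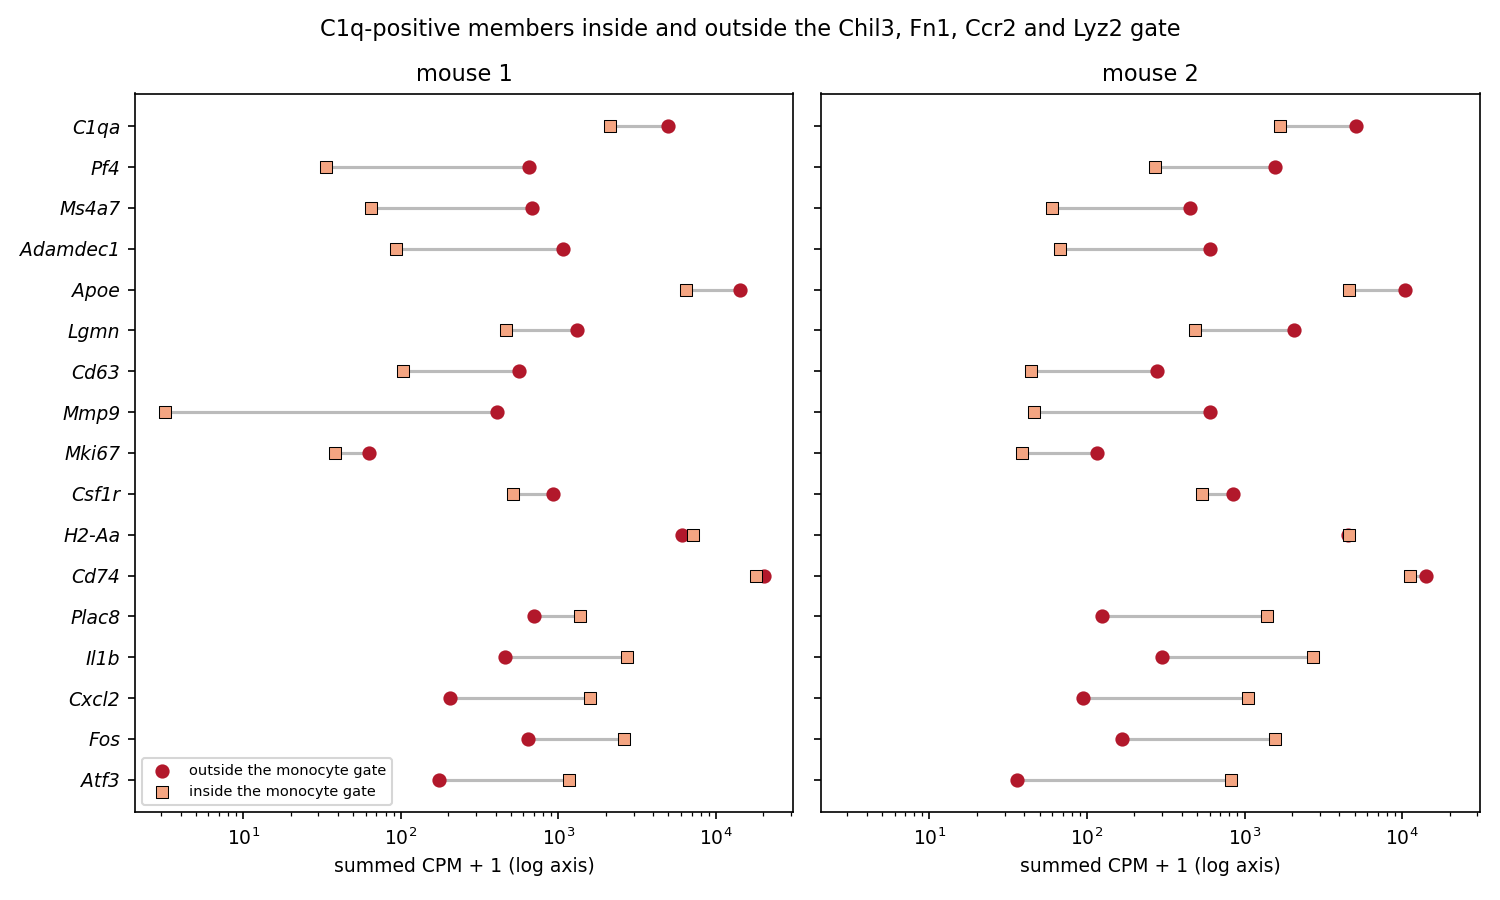
Summed CPM plus 1 (log axis) in members outside (circles) and inside (squares) the monocyte gate, for 17 genes, with 1 panel for each mouse. In both mice the class markers, with C1qa that helped choose the members among them, lie to the right outside the gate. Il1b, Cxcl2, Fos and Atf3 lie to the right inside it, and H2-Aa is nearly the same on both sides.

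The tests were rerun without the members that met the monocyte gate or the dendritic gate, or held at least 2 UMIs of B cell genes or 3 of epithelial or neutrophil genes (107 members, 26.1%, of mouse 1 and 81, 37.0%, of mouse 2). Then 354 genes were higher and 391 lower than in monocyte-like cells, and 329 of the 357 earlier calls remained. Against monocyte-like cells Il1b was then lower (-2.86 ± 0.64, adjusted p = 0.0204), compared with -0.74 ± 0.58 (adjusted p = 0.575) for all members. Csf1r was higher, by 0.92 ± 0.25 (adjusted p = 0.0431), as was Cx3cr1, the fractalkine receptor, by 2.04 ± 0.41 (adjusted p = 0.0127, against 0.0839 for all members). Against dendritic-like cells, Il1b (0.27 ± 0.61, adjusted p = 0.823) and Vegfa (2.33 ± 1.10, adjusted p = 0.212) lost their calls.

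Genes of cell division were higher in the members than in monocyte-like cells. Of the 15 proliferation genes tested, 8 were called higher and none lower (11 under the replicate block), with a median log2 fold change of 3.39 against 0.02 for all genes. Mki67, a marker of cycling cells, was at 50.5 and 65.8 CPM in the members, and had 3 UMIs in all monocyte-like cells, a ratio of 22.4 with a counting interval of 7.56 to 110 (adjusted p = 0.0036). Top2a, which untangles chromosomes, was at 52.0 and 75.2 CPM against 9.78 and 2.93 CPM (3.39 ± 0.57, adjusted p = 0.0181). Stmn1, a microtubule regulator, was at 124 and 203 CPM with 1 UMI in all monocyte-like cells, a ratio of 185 with a counting interval from 33.0 (adjusted p = 0.00104). Pcna, a replication clamp, was at 51.5 and 86.1 CPM against 39.1 and 55.7 CPM and was not called (adjusted p = 0.554). None of the 15 was called in either direction against dendritic-like cells.

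The UMIs of 7 mitotic genes (Mki67, Top2a, Birc5, Ube2c, Cdk1, Ccnb1 and Ccnb2, a subset chosen after their values were seen) were held by few members. In mouse 1, 28 members (6.83%, interval 4.59 to 9.72) had 3 or more and held 83.3% of these UMIs, and in mouse 2, 31 members (14.2%, 9.82 to 19.5) held 91.7%. Among monocyte-like cells, 1 of 57 and 0 of 98 had 3 or more. After thinning to 1000 UMIs, 10.8% and 16.2% of members held at least 1 such UMI, against 1.14% and 0.492% of monocyte-like, 10.2% and 7.10% of dendritic-like and 4.58% and 4.45% of all other kept cells. The 28 and 31 cells had medians of 6360 and 5516 UMIs, above the 2370 and 2300 of the other members. Their C1qa was at 3674 and 3643 CPM, against 3637 and 2695 CPM in the other members. Of them, 7 in each mouse met the monocyte gate, and 7 and 3 held UMIs of B cells, epithelium or neutrophils. Mki67 kept its call without the members holding UMIs of other classes (log2 fold change 5.05, adjusted p = 0.000823). Doublets with a cycling cell were not tested.

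**Figure D4:**
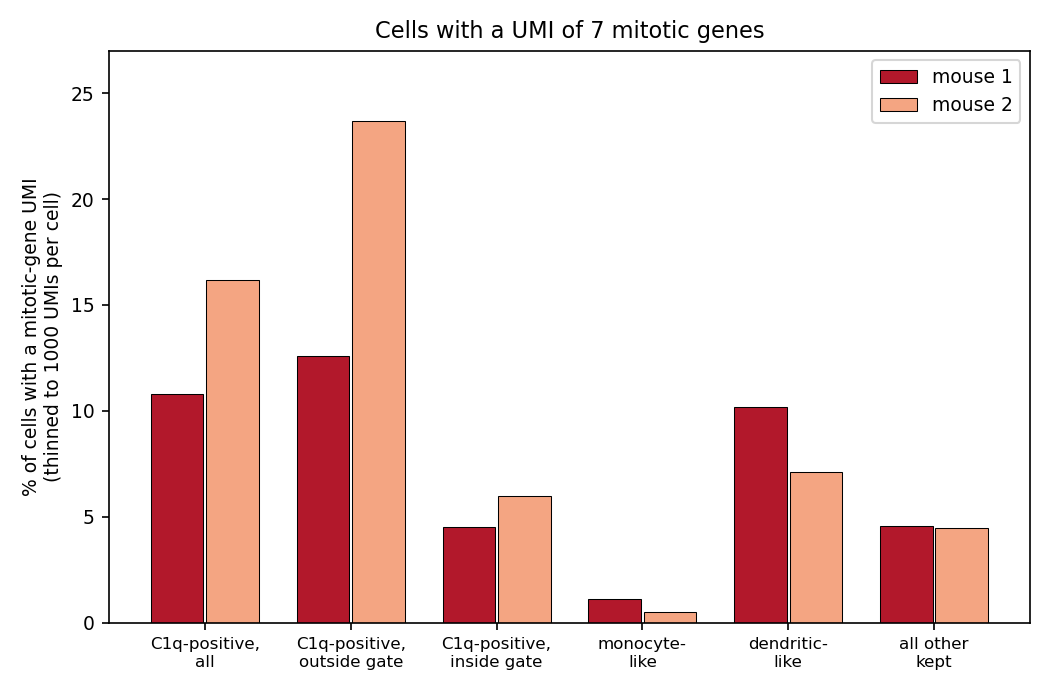
Share of cells, in percent, that held at least 1 UMI of 7 mitotic genes after each cell was thinned to 1000 UMIs, for all members, members outside and inside the monocyte gate, and 3 other classes, with 1 bar for each mouse. Members outside the gate had the highest bars (12.6% and 23.7%) and monocyte-like cells the lowest (1.14% and 0.492%).

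Some markers used to divide gut macrophages into subsets were sparse. Others were not, such as Itgax, at 304 and 305 CPM in the members, and Cx3cr1, at 278 and 397 CPM. Timd4, a receptor for phosphatidylserine on dying cells, was seen in 46 members (11.2%, 6.36% after thinning) of mouse 1 and 9 (4.11%, 2.60%) of mouse 2, against 0.295% and 0.0371% of Cd3-gated cells. Its UMIs lay outside the monocyte gate, with 66 of 67 in mouse 1 and 12 of 12 in mouse 2. In mouse 1, the 46 members with Timd4 had Adamdec1 at 1995 CPM and Apoe at 22877 CPM, and 47.8% of them held a Cd4 UMI. In mouse 2, the 9 members with Timd4 had Adamdec1 at 469 CPM and Apoe at 21008 CPM, and 22.2% held a Cd4 UMI. Cd4 was seen in 17.8% and 8.68% of members, and had no UMI in monocyte-like cells, at least 17.7-fold higher but not called (adjusted p = 0.0853, and 0.041 under the replicate block). Without the members holding UMIs of other classes, Cd4 was called higher (adjusted p = 0.0121). In dendritic-like cells Cd4 was at 10.1 and 61.2 CPM, against 60.5 and 19.6 CPM in the members. It was not called there, and lay in opposite directions in the mice (0.50 ± 0.79, adjusted p = 0.762). Wnt4, a secreted ligand, was at 54.5 and 11.7 CPM with no UMI in either comparison class, and was not called against monocyte-like cells (adjusted p = 0.0843, and 0.00311 under the replicate block) but was against dendritic-like cells (at least 20.2-fold higher, adjusted p = 0.0321). Without the members holding UMIs of other classes, Wnt4 was called against monocyte-like cells too (adjusted p = 0.00949).

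Markers of perivascular and submucosal macrophages were found almost wholly in mouse 2. Cd163, a haemoglobin scavenger receptor, was seen in 1 member of mouse 1 and 13 of mouse 2, with 1 and 62 UMIs. Lyve1, a hyaluronan receptor, had no UMI in mouse 1, where 0 of 410 members allow a share of up to 0.732%, and was seen in 5 members of mouse 2. Folr2, a folate receptor, had 2 UMIs in mouse 1 and 20 in mouse 2, where 1 cell held all of them. With 2 mice no test between them was possible, and these genes were too low to enter the fit.

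RNA of other cell types was also found in the members and is given with their values because it can move with the results. Immunoglobulin kappa (Igkc) was at 10430 and 1111 CPM in the members, against 6221 and 997 CPM in monocyte-like cells. Bank1, a gene of the B cell list, was at 48.0 and 18.8 CPM against 5.87 and 4.40 CPM (adjusted p = 0.0566, and 0.0108 under the replicate block). It had 2 UMIs in dendritic-like cells and was called higher than there (adjusted p = 0.00607). Without the members holding UMIs of other classes, B cell genes included, Bank1 was called against monocyte-like cells (3.63 ± 0.57, adjusted p = 0.00417). Whether its RNA came from B cells was not tested. Of 10 B cell marker genes, 10 and 4 had a UMI in the members, and their sum was 174 and 68.1 CPM, against 684 and 326 CPM in all other kept barcodes. Of 18 epithelial genes, the sum was 1529 and 85.3 CPM. Of 12 T cell genes, 8 and 6 had a UMI, summing to 19.5 and 18.0 CPM, with the Cd3 genes at 0 by selection. Of 9 mast cell genes, 1 (Kit) and none had a UMI. The part of such RNA, free or from doublets, in the results above was not tested.

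Ahcy, the methionine-cycle enzyme at the centre of the study, was near the limit of detection in the members, with 17 and 3 UMIs, or 8.50 and 2.35 CPM. Monocyte-like cells had 1 and 3 UMIs, and the gene was too low to be tested. Of 8 genes of the methionine cycle that were tested, none was called against either class, and the replicate block called 2 against dendritic-like cells, Mtr higher and Adk lower. Apc itself, which is deleted in epithelium in this model, was at 37.5 and 25.1 CPM in the members and 21.5 and 11.7 CPM in monocyte-like cells (0.98 ± 0.48, adjusted p = 0.333). UMIs at the 3′ end do not show whether the floxed exon is present.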

How the data were processed

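Single-cell 3′ libraries of 2 mice were analysed. The authors aligned reads to mm10 and counted UMIs with Cell Ranger 6.1.2, and deposited filtered matrices of raw counts; the annotation release was not given in the sources used here. Barcodes with over 100 genes, over 400 UMIs, under 5% mitochondrial and under 10% haemoglobin UMIs were kept. No doublet caller was run, so doublets remained. The members, gates and gene lists were chosen with earlier results of these data known.

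Counts were summed by mouse and class, and the 6 sums (C1q-positive, monocyte-like, dendritic-like) were fitted together with edgeR 4.0.16 in R 4.3.3 (TMM, quasi-likelihood test, two-sided, Benjamini-Hochberg over all 7903 genes tested, threshold 0.05). Every adjusted p given is from this test unless another setting is named. Genes of any gate were left out of the test. A comparison with all other kept barcodes is a description. Sums of 1 mouse come from the same animal, so the mouse pairs them; deviations of the same mouse correlated with r of 0.43, 0.39 and 0.25 between pairs of classes over 7934 genes. Alternatives were DESeq2 1.42.0, RLE factors, no filter, a replicate block, other gates, and sums left out.

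Genes were named from the marker and subset lists, as up to 4 called genes with the largest change in each functional list, as up to 8 in each direction outside the lists with at least 50 UMIs, and as Ahcy, Apc and abundant genes of other classes; a few others (Il10, Pcna, S100a8, S100a9 and the mitotic genes) were chosen after their values were seen. Members summed to 2000692 and 1277513 UMIs. Shares have exact Clopper-Pearson and levels exact Poisson intervals at 95%, and a count of 0 was set to a floor of 3 counts over the class for a fold. Thinning drew 1000 UMIs per cell. One gene of the lists is not reported here.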

Additional observations from a re-analysis of the deposited data

Results flagged for a closer look

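C1q UMIs also lay in barcodes outside the class, which the comparisons did not use. Among kept barcodes with at least 3 C1q UMIs, 69 of mouse 1 and 49 of mouse 2 were left out for a Cd3 UMI, 22 and 16 for plasma cell genes, and 13 and 5 for both. Those left out for a Cd3 UMI had medians of 33 and 15 C1q UMIs and Apoe at 9220 and 5545 CPM, against 10664 and 6672 CPM in the members. Those left out for plasma cell genes had medians of 20246 and 16519 UMIs in all and Apoe at 2496 and 1997 CPM. The filters on barcodes removed a further 59 and 34 with at least 3 C1q UMIs, whose median mitochondrial share was 7.46% and 7.79% and whose Apoe was at 10679 and 7128 CPM.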

How the results depend on the processing

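Against monocyte-like cells, the count of genes higher and lower (185 and 172) became 514 and 386 when low genes stayed in, 299 and 312 under a replicate block for the mouse, 265 and 264 (the first within 1.5 times) when the third class was left out of the fit, and 354 and 391 without members holding UMIs of other classes. DESeq2 gave 146 and 169. Genes of the functional lists called (36 higher, 8 lower) became 63 and 37 when low genes stayed in, 56 and 32 without those members, and 22 and 18 lower under the block and without the third class. Leaving out each sum in turn, a choice made after seeing the data that takes the lone sum of a class to vary like the others, gave 10 to 258 higher and 9 to 255 lower, and 3 to 51 list genes higher and 1 to 18 lower. Against dendritic-like cells (569 and 429), keeping low genes gave 1002 and 646, and sums left out gave 348 to 467 and 238 to 357. The block kept all 357 and 998 calls. Where it moved a list's count by over 1.5 times against monocyte-like cells, that count stands beside the result; smaller additions are not listed. The members' share was 4.48% and 2.24% with at least 10 C1q UMIs, 4.32% and 1.98% after thinning to 1000 UMIs, and 2.53% in mouse 2 after thinning with at least 1. Without members holding other-class UMIs, 6 genes called against dendritic-like cells no longer had their sign, among them Zfp36 (-0.39) and C3 (0.00, since neither class then held a C3 UMI); with a monocyte gate without Lyz2, 2 called against monocyte-like cells did not, among them Vcam1 (-0.55). The cause of these shifts was not tested. Depth limits Ahcy, Il10, Lyve1 and Folr2, which had too few UMIs to compare.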
